A study of Mus musculus with 3 samples.

Results

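The genes described here are the endothelins Edn1 and Edn3 with their receptors Ednra and Ednrb, and Kit ligand (Kitl) with its receptor Kit. They were taken by gene symbol, and all 6 were among the 31053 genes of the count matrices. The samples were single-cell libraries of the skin of C57BL/6 mice aged 7 weeks, from a hair growth study in which each of 3 agents, labelled control, Shi-Bi-Man and metformin, has 1 library. The control and metformin libraries were analysed, and the expression of the Shi-Bi-Man library was not analysed here. The labels give neither dose, route, skin site nor number of mice, so the agent, the animal and the site cannot be told apart. With 1 library per agent there was no replicate and no test between agents, and every interval below is exact, at 95%, and covers counting error only.

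Endothelins are short secreted peptides that are cut from larger precursors and act on 2 receptors coupled to G proteins. Ednra is best known from the contraction of vascular smooth muscle, and Ednrb from endothelium and from the neural crest lineage that gives rise to melanocytes, where Edn3 is its main ligand. Kit ligand, also called stem cell factor, is made as a membrane-bound or shed protein and signals through Kit, a receptor tyrosine kinase on melanocytes and mast cells. In the hair follicle, the dermal papilla and the epithelium around it are the niche in which melanocytes receive these signals while hair grows.

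The control library had 12108 barcodes and 71345558 unique molecular identifiers (UMIs), and the metformin library had 12092 barcodes and 92341365 UMIs. After filtering and removal of called doublets, 9681 control cells (median 3557 UMIs) and 8817 metformin cells (median 5562 UMIs) were clustered together, without the 6 genes among the variable genes. The libraries shared 41 barcodes, 27 of them among the kept cells. Clusters were named from marker genes and carry the ending "-like". Melanocyte-like cells numbered 18 in control and 19 in metformin, and 7 and 8 of the 8 listed pigment cell markers were detected in them. Cells of the hair matrix-like cluster, led by Krt35 and Msx2, numbered 17 and 817, and a cluster held so largely by 1 library may reflect that library. The dermal papilla-like class consisted of a cluster led by Hhip and Rspo3 (84 cells in control, 302 in metformin) and a cluster led by Slc26a7 and Notum (263 and 19 cells), so its values are also given by cluster. Its 10 listed markers were all detected in both libraries, at a summed level of 5258 and 8285 CPM, that is, counts scaled to a class total of 1000000. A cluster led by Acan, Lrrc15, Tnn and Col11a1 (233 and 350 cells) stayed unnamed and is called the Col11a1 Lrrc15 cluster. Its 8 fibroblast markers were all detected, at 15181 and 38394 CPM in sum, and its summed markers of vascular smooth muscle and pericytes were at 1811 and 4225 CPM.

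The ligands differed in the cells that held them, although vascular endothelium-like cells were rich in both Edn1 and Kitl. Edn1 was highest in vascular endothelium-like cells of both libraries. Edn3 lay mainly in dermal papilla-like cells in metformin and in these and fibroblast-like cells in control and, of the ligands, had the largest ratio between the libraries over all cells (4.60). In that class it was at 462 CPM in metformin and 68.9 CPM in control, with the 2 libraries unevenly spread over its clusters. Kitl was spread over endothelium, pericytes, fibroblasts and keratinocytes in both libraries, and in metformin 59.8% of its 2513 UMIs lay in the hair matrix-like cluster. Of the receptors, Kit was highest in melanocyte-like cells, Ednra in dermal papilla-like cells, pericytes and the Col11a1 Lrrc15 cluster, and Ednrb in melanocyte-like cells and, in metformin, in the Col11a1 Lrrc15 cluster as well.

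**Figure D1:**
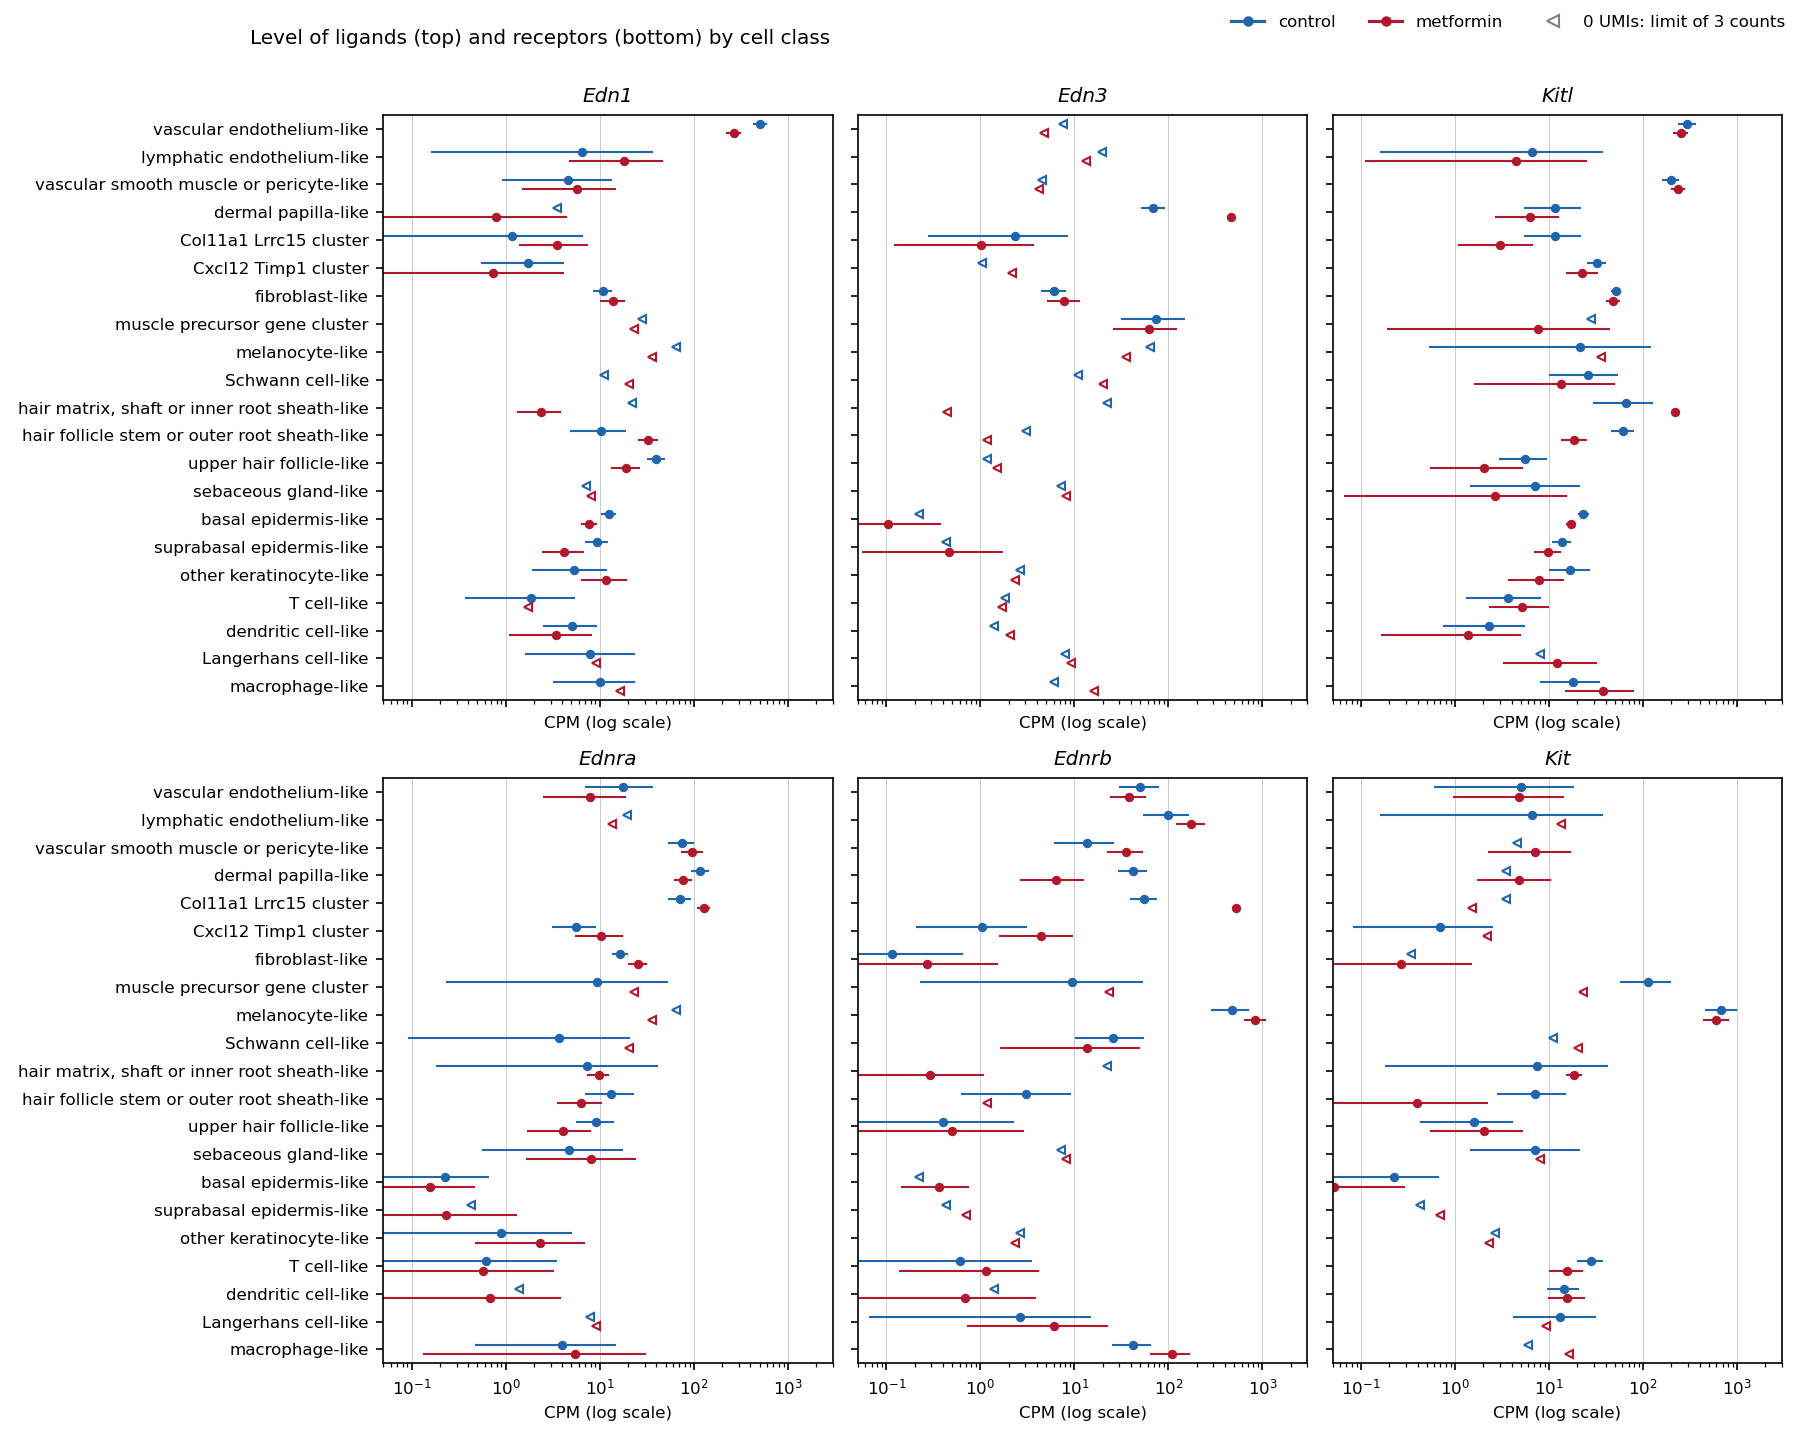
Level of the 3 ligands (top row) and 3 receptors (bottom row) in each cell class or unnamed cluster, in CPM on a log scale, with control in blue and metformin in red. Each point is the summed count of a class, bars are 95% exact Poisson intervals, open triangles mark classes with 0 UMIs at the limit of 3 counts, and bars are cut at the left edge of the axis. Edn1 is highest in vascular endothelium-like cells (508 and 265 CPM), Edn3 in metformin in dermal papilla-like cells (462 CPM), and Kit in melanocyte-like cells (682 and 603 CPM).

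Edn1 (ENSMUSG00000021367, chr13:42301476-42307990, plus strand, GRCm38) encodes endothelin-1, the vasoconstrictor peptide of endothelium. It had 675 UMIs in control and 557 in metformin, of which 29.9% and 29.98% lay in vascular endothelium-like cells. There it was at 508 CPM (441 to 584; 202 UMIs in 127 cells) in control and 265 CPM (227 to 309; 167 UMIs in 177 cells) in metformin, a ratio of 0.522 (0.423 to 0.644). An Edn1 UMI was found in 36.2% and 32.2% of these cells with medians of 2789 and 3099 UMIs. In T cell-like cells, with medians of 2303 and 2244 UMIs, the shares were 0.478% and 0. The antisense gene Gm47118 overlaps Edn1, and the strand setting of the counting is not given in the sources used here.

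Within the endothelium, Edn1 differed more between sub-clusters than between the libraries. It was highest in the sub-cluster led by Gkn3, which also had the arterial connexin gene Gja5 among its top 10 genes, at 1987 CPM (129 UMIs in 21 cells) in control and 762 CPM (58 UMIs in 24 cells) in metformin. One control endothelium-like cell held 36 UMIs, and the highest metformin cell held 14. In the sub-cluster led by Sele and Selp, adhesion genes of venules, Edn1 was at 323 (235 to 434) and 299 CPM (237 to 372), with overlapping intervals. In the sub-cluster led by Car4, a gene of capillary endothelium, it was at 64.0 and 57.4 CPM. The Gkn3 sub-cluster was thus the one in which the intervals of the libraries lay apart, 1659 to 2361 CPM against 579 to 986 CPM.

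Outside the endothelium, Edn1 was low but not absent. In the Sfrp4 Myoc fibroblast-like cluster it was at 86.1 CPM (68.7 to 107) in control and 69.5 CPM (50.5 to 93.3) in metformin, whereas it was at 2.59 and 2.70 CPM in the larger Cyp2f2 Cpz fibroblast-like cluster. In upper hair follicle-like cells it was at 39.6 CPM (32.2 to 48.2) and 19.2 CPM (13.6 to 26.3), a ratio of 0.484 (0.324 to 0.710). In hair follicle stem or outer root sheath-like cells the direction was the other way, with 10 UMIs (10.2 CPM) in 194 control cells and 82 UMIs (32.4 CPM) in 490 metformin cells. That ratio of 3.18 (1.65 to 6.88) moved when cells were filtered and clustered anew. From 1.67 on the log2 scale it went to 0.32 with doublets kept and to 0.49 with the wider limits on genes and mitochondrial counts. With doublets kept no cell was removed, yet the class had 31 Edn1 UMIs in 479 metformin cells. Cells that held much of its metformin Edn1 thus fell in other classes under that clustering. Basal epidermis-like cells were at 12.4 and 7.67 CPM, and suprabasal epidermis-like cells at 9.29 and 4.19 CPM. No Edn1 UMI was found in melanocyte-like cells, which allows up to 63.9 CPM in control and 35.5 CPM in metformin (3 counts).

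Edn3 (ENSMUSG00000027524, chr2:174760619-174784042, plus strand) encodes endothelin-3, the melanocyte growth and survival factor of the neural crest. It was the rarest ligand in control, with 122 UMIs over all cells, and had 627 UMIs in metformin. Dermal papilla-like cells held 48.4% of the control UMIs and 93.1% of the metformin UMIs. Its promoter is printed because Edn3 is the member whose UMIs gathered most in 1 class, and because its start site is the same in RefSeq and in GENCODE. The 150 bases before the start (GRCm38.p6, chr2:174760469-174760618, plus strand, sequence from RefSeq) are given with matches to the E-box CANNTG in capitals.
Edn3: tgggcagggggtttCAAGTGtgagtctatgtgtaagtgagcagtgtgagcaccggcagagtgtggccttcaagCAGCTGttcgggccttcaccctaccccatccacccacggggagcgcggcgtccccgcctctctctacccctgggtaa
The 2 matches began 136 and 77 bases before the start, and 47.7% of 32851 promoters of this length held at least 1 match on either strand. The TATA box TATAAA, the AP-1 site TGACTCA, the LEF/TCF sites CTTTGT and CTTTGA, the GC box GGGCGG and the GATA site AGATAA were searched on both strands as well and were not among these letters. Their shares over all promoters ran from 2.84% for TGACTCA to 28.6% for GGGCGG.

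In the Hhip dermal papilla-like cluster, Edn3 was at 134 CPM (94.1 to 184; 37 UMIs in 84 cells) in control and 479 CPM (441 to 520; 581 UMIs in 302 cells) in metformin, a ratio of 3.58 (2.57 to 5.14). In control 23 of 84 cells had an Edn3 UMI, and in metformin 199 of 302. No T cell-like cell had one, and 2 of 2554 basal epidermis-like metformin cells did. With every cell thinned to 1500 UMIs the shares in the Hhip cluster were 8.54% (3.501 to 16.8) and 39.8% (34.2 to 45.6). The metformin cells of this cluster were deeper, at a median of 3973 UMIs against 3037, and the thinned shares compare cells of equal depth. In the Slc26a7 dermal papilla-like cluster, Edn3 was at 38.0 CPM (23.8 to 57.5; 22 UMIs in 263 cells) in control and 57.7 CPM (11.9 to 169) in metformin, the latter on 3 UMIs in 19 cells. For the class as a whole the ratio was 6.70 (5.12 to 8.91), above that of either cluster, and 263 of its 347 control cells lay in the Slc26a7 cluster, where Edn3 was low.

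Edn3 was counted in many metformin cells at low numbers and not in a few cells at high numbers. In the Hhip cluster, 75 metformin cells had 1 UMI, 124 had at least 2, and the highest had 12. In control, 13 cells had 1 UMI, 10 had at least 2, and the highest had 5. By sub-cluster, the metformin level ran from 150 CPM (11 cells led by Cilp) to 687 CPM (76 cells led by Dtna and Npr3). In the same 2 sub-clusters, control was at 89.4 CPM (56 cells) and 221 CPM (13 cells). Control cells lay mainly in the sub-cluster of Cilp, in which the interval of metformin (54.9 to 326 CPM) overlapped that of control (51.1 to 145 CPM). In the sub-cluster of Adamts18 and Pcx, levels of 310 CPM (9 UMIs) and 283 CPM (35 UMIs) also had overlapping intervals. In the Dtna sub-cluster the intervals lay apart, 110 to 396 CPM in control and 595 to 788 CPM in metformin.

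Outside the dermal papilla-like class, Edn3 lay mainly in fibroblast-like cells. In control they held 43.4% of its UMIs, with 53 UMIs in 42 of 3112 cells (6.06 CPM). In metformin they held 4.63%, with 29 UMIs in 16 of 1192 cells (7.79 CPM). The Stc1 Igfbp2 fibroblast-like cluster was at 17.8 and 20.5 CPM and the Coch Dkk2 fibroblast-like cluster at 7.46 and 12.7 CPM, with overlapping intervals in both. An unnamed cluster led by the muscle precursor genes Pax7 and Myf5 (44 and 41 cells) had 8 Edn3 UMIs in each library, or 74.5 and 61.8 CPM. In control its interval (32.2 to 147) overlapped that of the dermal papilla-like class (52.5 to 88.9), so the order of these 2 was not resolved. Vascular endothelium-like and melanocyte-like cells had 0 Edn3 UMIs in both libraries. The Col11a1 Lrrc15 cluster, which is rich in Ednrb, had 2 UMIs in each library.

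Kitl (ENSMUSG00000019966, chr10:100015630-100100416, plus strand) had 1349 UMIs in control and 2513 in metformin. In control, fibroblast-like cells held 33.2% of them and basal epidermis-like cells 23.1%. By level, the vessels came first in control. In metformin the intervals of the endothelium, the vascular smooth muscle or pericyte-like class and the hair matrix-like cluster overlapped. The smooth muscle or pericyte-like class was at 197 CPM (165 to 234) in control and 235 CPM (201 to 274) in metformin. Vascular endothelium-like cells were at 295 CPM (244 to 353) in control and 253 CPM (215 to 295) in metformin, and the Rgs5 cluster of the vascular smooth muscle or pericyte-like class was at 288 CPM (239 to 343) and 309 CPM (262 to 363). A Kitl UMI was found in 50.4% and 50.3% of the endothelium-like cells and in 51.6% and 53.4% of the Rgs5 cluster, against 0.478% and 0.881% of T cell-like cells. The ratios were 0.858 (0.671 to 1.10) and 1.07 (0.842 to 1.37), and both intervals include 1. In the endothelium, Kitl was higher in the Car4 sub-cluster (474 and 385 CPM) than in the Gkn3 sub-cluster (185 and 237 CPM), the reverse of the order of Edn1, although in metformin the 2 intervals (283 to 512 and 140 to 374) overlapped.

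Kitl differed between fibroblast-like clusters, whereas within each of them the intervals of the libraries overlapped. The Stc1 Igfbp2 cluster was highest at 116 CPM (98.8 to 136) and 131 CPM (101 to 168). The Sfrp4 Myoc cluster was at 76.9 and 79.0 CPM, the Cyp2f2 Cpz cluster at 37.2 and 25.2 CPM, and the Coch Dkk2 cluster at 29.5 and 25.5 CPM. Dermal papilla-like cells, which held most Edn3 UMIs in metformin, were low in Kitl, at 11.7 CPM (10 UMIs) and 6.33 CPM (8 UMIs). Basal epidermis-like cells were at 23.2 CPM (20.7 to 26.0) and 17.1 CPM (15.3 to 19.1), a ratio of 0.738 (0.630 to 0.865). Hair follicle stem or outer root sheath-like cells were at 61.2 CPM (46.7 to 78.7; 60 UMIs in 194 cells) and 18.6 CPM (13.7 to 24.7; 47 UMIs in 490 cells), a ratio of 0.304 (0.203 to 0.453). Thinned to 1500 UMIs, 6.88% and 2.10% of the latter had a Kitl UMI.

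The hair matrix-like cluster held the larger part of the Kitl UMIs of the metformin library. It had 1502 UMIs in 817 metformin cells, or 241 CPM (229 to 253), and 9 UMIs in 17 control cells, or 72.3 CPM (33.0 to 137). A Kitl UMI was found in 314 of the 817 cells (38.4%) and in 5 of the 17. The UMIs were unevenly spread, since 503 metformin cells had 0, 130 had 1, 43 had at least 10 and the highest had 57. The 10% of cells with the most UMIs held 71.4% of them. Cells of the inner root sheath keratin cluster, led by Krt71 and Krt73, had 0 Kitl UMIs in 82 metformin cells, which allows up to 5.34 CPM (3 counts).

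Kitl was uneven between the sub-clusters, which were made without the 6 genes. The 47 metformin cells led by Csta1, Soat1, Sptssb, Adh6b, Tgm6 and Foxq1, with Krt75, a keratin of the companion layer and medulla, among the top 10 genes, all had a Kitl UMI. They held 727 of the 1502 UMIs, at 2571 CPM (2388 to 2765), and no control cell lay in this sub-cluster. The next level was 452 CPM (410 to 497) in 128 metformin cells led by Dlk2 and Bmper, and the lowest was 16.7 CPM in 72 cells led by the inner root sheath genes Krt73 and Krt71. Of the 817 cells, those with a UMI of Lef1, a Wnt effector of the matrix and precortex, were at 321 CPM and those without at 111 CPM. Those with a UMI of the proliferation marker Mki67 were at 103 CPM and those without at 415 CPM. Cells with a UMI of Shh, a ligand of matrix epithelium, were at 55.6 CPM and the rest at 265 CPM. The splits by these genes were chosen after the Kitl values were seen and are given as descriptions.

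**Figure D2:**
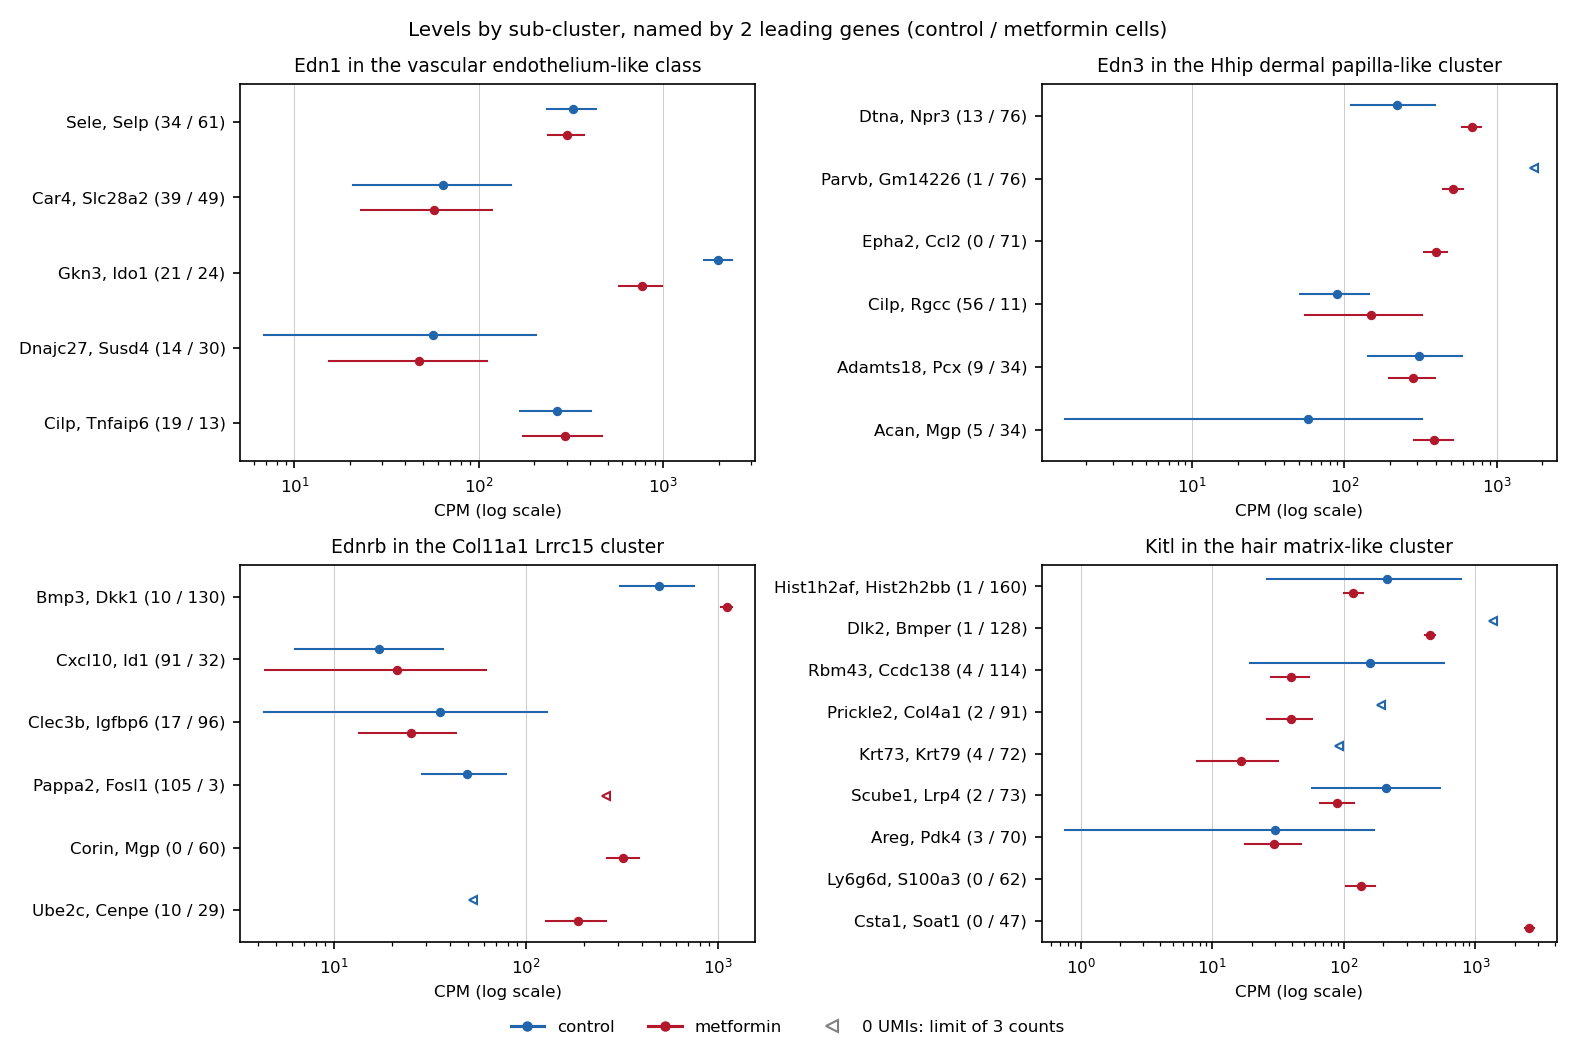
Level in CPM (log scale) of Edn1, Edn3, Ednrb and Kitl in the sub-clusters of the class or cluster with much of each gene, for control (blue) and metformin (red). Sub-clusters are named by 2 leading genes with the numbers of control and metformin cells, bars are 95% exact Poisson intervals, and open triangles mark 0 UMIs at the limit of 3 counts. Kitl stands at 2571 CPM in the Csta1 Soat1 sub-cluster, Ednrb at 492 and 1105 CPM in the Bmp3 Dkk1 sub-cluster, and Edn1 at 1987 and 762 CPM in the Gkn3 Ido1 sub-cluster.

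Ednra (ENSMUSG00000031616, chr8:77663031-77724464, minus strand) had 426 UMIs in control and 634 in metformin. The gene 4933431K23Rik on the plus strand overlaps it. In control its leading classes were dermal papilla-like cells at 117 CPM (95.04 to 142), vascular smooth muscle or pericyte-like cells at 74.3 CPM (55.0 to 98.2) and the Col11a1 Lrrc15 cluster at 71.2 CPM (54.5 to 91.5), and neighbours in this order had overlapping intervals. In metformin the order was reversed, with the Col11a1 Lrrc15 cluster at 127 CPM (112 to 144), smooth muscle or pericyte-like cells at 96.3 CPM (74.8 to 122) and dermal papilla-like cells at 77.5 CPM (62.9 to 94.5), again with overlapping neighbours. Vascular Ednra lay in the Rgs5 cluster, at 114 and 137 CPM, and not in the Actg2 Cnn1 cluster of the same class, with 0 and 1 UMIs in 33 and 35 cells. T cell-like cells had 1 Ednra UMI in each library, and melanocyte-like cells had 0.

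In the Hhip dermal papilla-like cluster, Ednra was at 123 CPM (85.1 to 172) in control and 79.2 CPM (64.1 to 96.7) in metformin, a ratio of 0.644 (0.432 to 0.983), whereas the ratio of Edn3 in the same cells was 3.58. In the Slc26a7 cluster it was at 114 CPM (66 UMIs) in control and 38.5 CPM (2 UMIs) in metformin, with an interval of the ratio that includes 1. UMIs of both Edn3 and Ednra were found in 8 of 84 control and 58 of 302 metformin cells of the Hhip cluster. Edn3 alone or with Ednra was in 23 and 199 cells, and Ednra alone or with Edn3 in 23 and 81. Whether the joint counts exceed those of separate detection was not tested. In the Col11a1 Lrrc15 cluster the ratio of Ednra was 1.78 (1.34 to 2.40), and 44.9% of metformin cells had a UMI against 21.0% of control cells, or 16.6% and 9.01% after thinning to 1500 UMIs. Among fibroblast-like clusters, Ednra was highest in the Coch Dkk2 cluster, at 41.0 and 52.3 CPM, and was at 3.75 and 3.60 CPM in the Cyp2f2 Cpz cluster.

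Ednrb (ENSMUSG00000022122, chr14:103814625-103844402, minus strand) had 188 UMIs in control and 1247 in metformin, or 4.16 and 24.7 CPM over all cells. That ratio, 5.93 (5.09 to 6.95), was the highest of the 6 genes, beside 4.60 (3.78 to 5.63) for Edn3, and the 2 intervals overlapped. The Col11a1 Lrrc15 cluster held 25.0% of the control UMIs and 83.1% of the metformin UMIs. There Ednrb was at 54.9 CPM (40.3 to 72.9; 47 UMIs in 233 cells) in control and 524 CPM (493 to 557; 1036 UMIs in 350 cells) in metformin, a ratio of 9.55 (7.13 to 13.1). A UMI was found in 17 control cells and 159 metformin cells, and in 5.41% and 29.9% after thinning, against 0.179% and 0.338% of thinned T cell-like cells. A single control cell held 18 of the 47 UMIs. Without the highest cell of each library the log2 ratio was 3.89, against 3.26 with all cells.

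The libraries were unevenly spread over the sub-clusters of this cluster. The sub-cluster led by Bmp3 and Dkk1 had 10 control and 130 metformin cells. It was at 492 CPM (308 to 744; 22 UMIs, 18 of them in 1 cell) in control and 1105 CPM (1033 to 1180; 880 UMIs) in metformin. The control cells lay mainly in the sub-clusters led by Cxcl10 (91 cells) and by Pappa2 (105 cells), with Ednrb at 17.0 and 49.2 CPM. In the Cxcl10 sub-cluster the 32 metformin cells were at 21.2 CPM, with an interval (4.36 to 61.8) that overlapped that of control (6.24 to 37.0). A sub-cluster of 60 metformin cells led by Corin and Mgp was at 321 CPM and held no control cell. In the Bmp3 Dkk1 sub-cluster, markers of some other cells that carry Ednrb were summed in metformin. Markers of macrophages and lymphatic endothelium were not summed, and the part of other cells was not tested. Those of melanocytes summed to 18.8 CPM with Tyr, Tyrp1 and Pmel at 0, those of Schwann cells to 40.2 CPM and those of vascular endothelium to 10.04 CPM. Markers of smooth muscle and pericytes, 6 of 9 of them detected, summed to 7162 CPM there, against 37273 CPM in the class of that name, with Kcnj8, Abcc9 and Des at 0, and their part in the result was not tested. Ednra was at 134 and 131 CPM in the same sub-cluster, and in the whole Col11a1 Lrrc15 cluster 79 of 350 metformin cells had UMIs of both receptors.

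In melanocyte-like cells, Ednrb was at 469 CPM (294 to 710; 22 UMIs in 18 cells) in control and 840 CPM (656 to 1059; 71 UMIs in 19 cells) in metformin, a ratio of 1.79 (1.10 to 3.04). A single control cell held 10 of the 22 UMIs. Without the highest cell of each library the log2 ratio was 1.48 (12 and 57 UMIs), against 0.84 with all cells. The medians were 2112 and 3268 UMIs, and thinned to 1500 UMIs 42.9% of 14 and 44.4% of 18 cells had an Ednrb UMI. These values depended on the cell filter. Without the upper limit on genes, and with up to 20% mitochondrial counts, 2 melanocyte-like sub-clusters held 11 and 14 cells in control, 28 and 12 in metformin, and Ednrb was at 253 CPM (41 UMIs) and 1111 CPM (534 UMIs). Lymphatic endothelium-like cells were at 97.8 CPM (54.7 to 161) and 175 CPM (124 to 239), vascular endothelium-like cells at 50.3 and 38.1 CPM, and macrophage-like cells at 42.0 CPM (21 UMIs) and 108 CPM (20 UMIs). The Slc26a7 dermal papilla-like cluster had 32 UMIs in 263 control cells (55.2 CPM) and 0 in 19 metformin cells, which allows up to 57.7 CPM (3 counts). The Hhip dermal papilla-like cluster was at 14.5 and 6.60 CPM on 4 and 8 UMIs. Of the fibroblast-like cells, 1 in each library had an Ednrb UMI.

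Kit (ENSMUSG00000005672, chr5:75574916-75656722, plus strand) had 148 UMIs in control and 248 in metformin. Its level was highest in melanocyte-like cells, at 682 CPM (466 to 962; 32 UMIs in 18 cells) in control and 603 CPM (449 to 793; 51 UMIs in 19 cells) in metformin. The ratio of 0.885 (0.558 to 1.42) includes 1. A Kit UMI was found in 13 of the 18 and 16 of the 19 cells, and UMIs of both Kit and Ednrb in 6 and 11 of them. Basal epidermis-like cells had 3 and 1 Kit UMIs. With the wider cell filter, the level was 352 CPM (57 UMIs) and 376 CPM (181 UMIs).

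Most Kit UMIs lay outside melanocyte-like cells. In metformin, 122 UMIs were in the hair matrix-like cluster, in 87 of 817 cells, at 19.5 CPM (16.2 to 23.3). The 17 control cells of that cluster had 1 UMI. Basal epidermis-like metformin cells, with a similar median depth (7349 against 8062 UMIs), had a Kit UMI in 1 of 2554 cells. Pigment markers were also found in these metformin cells, with a UMI of Dct, a melanin synthesis gene, in 97 of them and a sum of 30.4 CPM, against 29460 CPM in melanocyte-like cells. Kit was at 12.05 CPM (9 UMIs) in the cells with Dct and 20.6 CPM in those without. It was at 26.3 CPM in cells with a UMI of Mki67 and 10.9 CPM in those without, whereas Kitl was higher in the cells without. UMIs of both Kit and Kitl were found in 21 of the 817 cells. In the Csta1 sub-cluster, where Kitl was highest, 0 Kit UMIs were counted.

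T cell-like cells had 45 Kit UMIs in control (27.6 CPM, 20.2 to 37.0) and 27 in metformin (15.5 CPM, 10.2 to 22.5). Dendritic cell-like cells with Xcr1 were at 35.9 CPM (22 UMIs) and 40.03 CPM (19 UMIs). No mast cell cluster was found. Cells with UMIs of at least 3 mast cell markers numbered 7 in control, with 18 Kit UMIs, and 2 in metformin, with 0. Of the 12 control Kit UMIs in the muscle precursor gene cluster, 11 were in 2 such cells, and of the 20 in the Il17a T cell-like cluster, 5 were in 1 such cell. Without those the muscle precursor gene cluster had 1 Kit UMI.

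**Figure D3:**
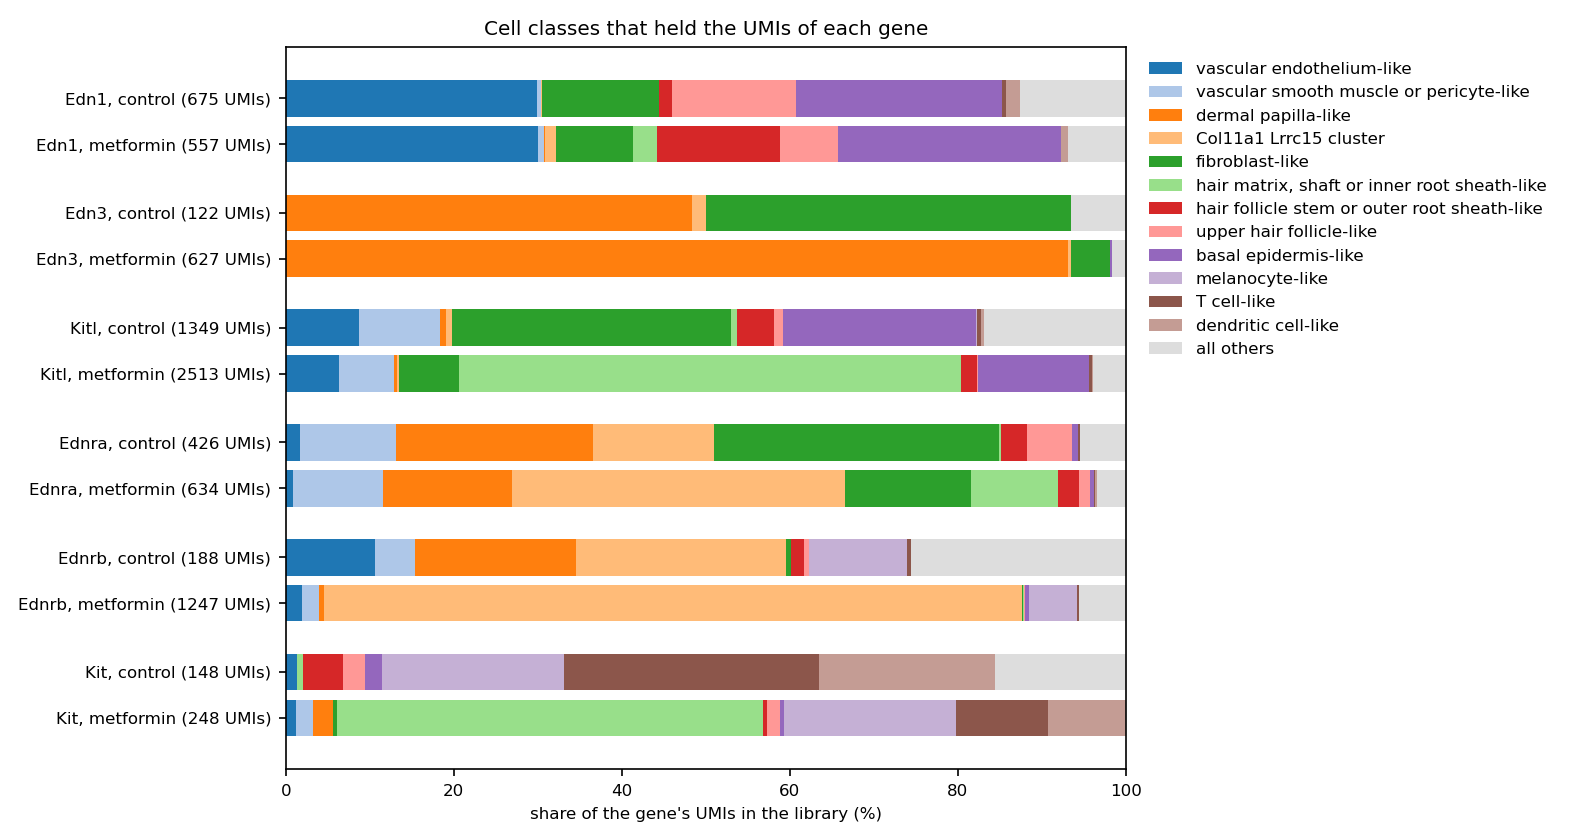
Share (%) of the UMIs of each gene in each library that lay in the cell classes named in the legend, with the number of UMIs beside the gene and library. Shares depend on the number and depth of the cells of a class as well as on the level. Dermal papilla-like cells held 48.4% of Edn3 UMIs in control and 93.1% in metformin, and the Col11a1 Lrrc15 cluster held 25.0% and 83.1% of Ednrb UMIs.

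Ligands and receptors were then set side by side. For the Edn3 and Ednrb pair, the ligand was highest in dermal papilla-like cells in metformin, and in control these cells and the muscle precursor gene cluster were not resolved. The receptor was highest in melanocyte-like cells of both libraries, followed in metformin by the Col11a1 Lrrc15 cluster. For Edn1 and Ednra, the ligand was in the endothelium-like cells and the receptor, in both libraries, in the Rgs5 cluster of pericyte-like cells as well as in the Col11a1 Lrrc15 and dermal papilla-like cells. For Kitl and Kit, the ligand was highest in vessels, joined in metformin by hair matrix-like cells. The receptor was highest in melanocyte-like cells of both libraries. In the Rgs5 cluster, UMIs of both Kitl and Ednra were in 25 of 124 control and 30 of 131 metformin cells. Kitl was in 64 and 70 of these cells, and Ednra in 36 and 53. In endothelium-like cells, UMIs of both Edn1 and Kitl were in 25 of 127 and 27 of 177 cells. Edn1 was in 46 and 57 of these cells, and Kitl in 64 and 89. None of the joint counts of 2 genes, here or above, was compared with the number expected from separate detection. Melanocyte-like cells had 1 Kitl UMI and no Edn1 or Edn3 UMI.

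Ratios of the members were read against all genes of the same cells with at least 20 counts over both libraries. In the dermal papilla-like class 3 of the 6 members were measured, of which Edn3 was at least 1.5-fold higher and Ednra and Ednrb at least 1.5-fold lower in metformin, where 27.6% of 9062 genes were higher and 14.1% lower. Of those genes, 91 had a higher ratio than Edn3. In the Col11a1 Lrrc15 cluster both measured members, Ednra and Ednrb, were higher, where 17.1% of genes were higher and 20.6% lower. In vascular endothelium-like cells 1 of 3 measured members, Edn1, was lower, where 9.68% of genes were higher and 12.4% lower. In vascular smooth muscle or pericyte-like cells 1 of 3, Ednrb, was higher (9 and 25 UMIs), where 8.68% were higher and 9.48% lower. In the Rgs5 cluster of that class the log2 ratio of Ednrb was 0.52, below 1.5-fold. In melanocyte-like cells 1 of 2, Ednrb, was higher, where 23.6% of 967 genes were higher and 16.2% lower. Over all genes the median log2 ratio was 0.17 in dermal papilla-like cells, 0.13 in melanocyte-like cells, -0.02 in the Col11a1 Lrrc15 cluster and close to 0 in both vascular classes.

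**Figure D4:**
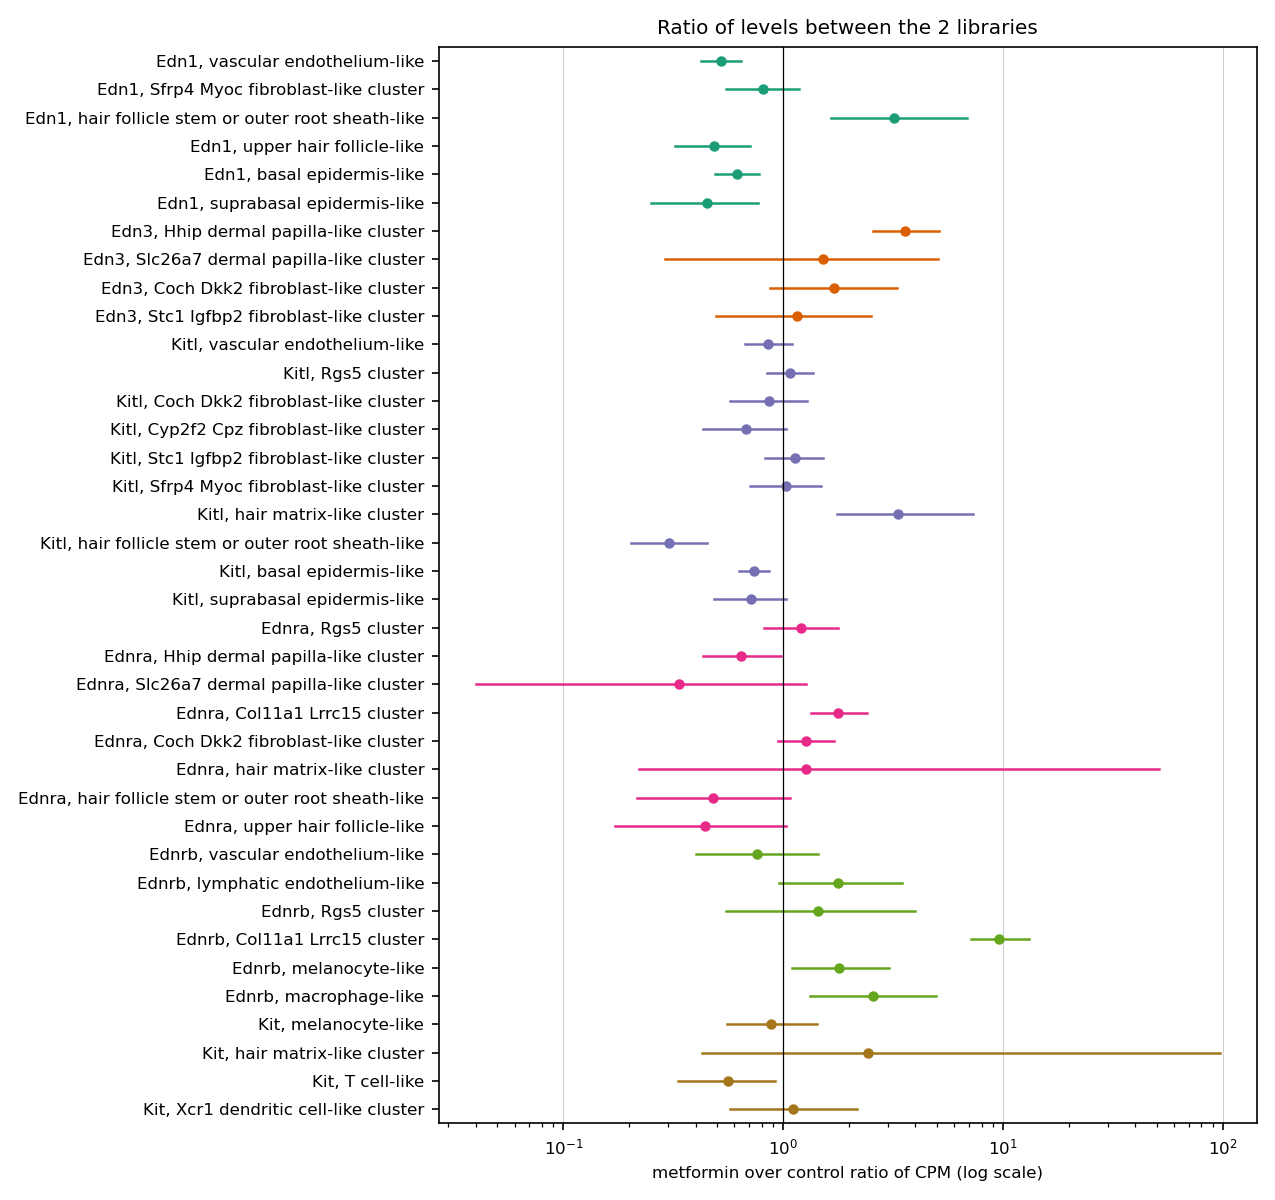
Metformin over control ratio of the CPM of each gene (log scale) in classes or clusters with at least 20 UMIs of the gene over both libraries. Points are ratios and bars are 95% exact conditional binomial intervals, which cover counting error only with 1 library per agent. Ednrb in the Col11a1 Lrrc15 cluster (9.55) and Edn3 in the Hhip dermal papilla-like cluster (3.58) lie to the right of 1, whereas the bars of Kitl in vascular endothelium-like cells and the Rgs5 cluster include 1.

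Genes that act before and after these receptors were taken from lists and counted in the same way. In vascular endothelium-like cells Ece1, the enzyme that cuts endothelin precursors, was at 451 and 507 CPM and Furin, which acts before it, at 101 and 81.0 CPM, and neither passed 1.5-fold while Edn1 did. None of the 7 measured genes of endothelin signal transduction passed 1.5-fold there (median log2 ratio 0.10). Over all genes of these cells, 9.68% were higher and 12.4% lower. In vascular smooth muscle or pericyte-like cells 8.68% of all genes were higher and 9.48% lower. None of the 7 endothelin signal genes measured there passed either, with Rgs2 measured in place of Arrb1. They included Rgs5, a regulator of G protein signals in pericytes, at 1637 and 1864 CPM, and Plcb4, a phospholipase of that pathway, at 337 and 258 CPM. In the dermal papilla-like class 3 of 7 were lower and none higher (median log2 ratio -0.49, against 0.17 for all genes). There 14.1% of all genes were lower and 27.6% higher. Plcb1 was at 51.4 and 17.4 CPM and Rgs2 at 35.0 and 11.9 CPM, while Gnaq was at 178 and 149 CPM. In the Hhip cluster alone 4 of 7 were lower and none higher (median log2 ratio -0.70, against 0.12 for all genes), where 12.8% of 8173 genes were lower and 25.4% higher. Plcb1 was at 68.7 and 16.5 CPM there. Rgs2 was at 21.7 and 11.5 CPM on 6 and 14 UMIs, a ratio of 0.533 (0.192 to 1.69).

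In the Col11a1 Lrrc15 cluster 1 of 7 endothelin signal genes was higher and 2 lower (median log2 ratio -0.42, against -0.02), and among processing genes Mme, a protease of small peptides, was at 24.5 and 52.1 CPM. Of 14 genes of Kit signal transduction, 12 were measured there, of which 4 were lower and none higher. Over all genes of that cluster, 20.6% were lower and 17.1% higher. In dermal papilla-like cells 1 of 13 was higher and 2 lower, where 27.6% of all genes were higher and 14.1% lower. Pik3r1, a subunit of PI3 kinase, was at 445 and 245 CPM in that class. In the Hhip cluster alone it was at 304 and 241 CPM, with an interval of the ratio (0.620 to 1.02) that includes 1. Of other niche signals of pigment cells, Wnt5a was at 214 and 782 CPM in dermal papilla-like cells and at 481 and 810 CPM in the Hhip cluster alone. Fgf2, a growth factor of melanocytes, was at 60.7 and 26.9 CPM in the class. In the Hhip cluster alone Fgf2 was at 47.0 and 26.4 CPM, with an interval of the ratio (0.287 to 1.17) that includes 1. In melanocyte-like cells only the list of pigment cell factors could be measured, with Mitf, the master regulator of melanocytes, at 767 and 934 CPM, Pax3 at 405 and 438 CPM and Sox10 at 383 and 237 CPM on 18 and 20 UMIs.

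Genes with the pattern most like each member over 18 named classes, both libraries summed, were found among 13361 genes by Pearson correlation of log2(CPM + 10), as a description over classes that share the 2 libraries. Edn1 was closest to Samd12 (0.93) and Rbp7 (0.89), and also to Exoc3l2, Mcf2l and Sele. Edn3 was closest to Pappa2 (0.997) and Sox11 (0.997), then Clstn2, Tnn and Chst8. Kitl had the least close matches, with Pcdh19 at 0.85 and Pola2 at 0.83, then Ttll7, Cdh6 and Msx1. Ednra was closest to Gm17501 (0.94) and Gdf11 (0.93), then Triqk, Tbx18 and Adamts15. Ednrb was closest to Myo7a (0.93), Ppp1r18os, Mgat4b, Scly and Hddc3, and the Col11a1 Lrrc15 cluster, being unnamed, was not among the 18 classes. Kit was closest to Espn (0.93), the pigment enzyme gene Tyr (0.93), Syt4, Ptgds and Trpm1.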

How the data were processed

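The authors deposited raw counts of UMIs. The matrix headers name Cell Ranger 4.0.0, and the submitters' processing notes name the build GRCm38. Counting by strand or in introns is not given in the sources used here. Barcodes needed 300 to 3000 genes, a minimum of 800 UMIs and a mitochondrial share of no more than 8%. Scrublet (scanpy 1.11.5, expected rate 8%) called 2.43% of kept control and 3.26% of kept metformin barcodes doublets, which were removed. The upper limit on genes affected 12.1% and 19.4% of barcodes. Counts were scaled to 10000 per cell and logged, 2000 variable genes without the 6 members gave 30 components, and cells sharing at least 3 of 20 neighbours were joined for Leiden clustering (leidenalg 0.10.2, resolution 1). The components were not corrected for differences between the libraries, and the part of such differences in the clusters was not tested. Among types with at least 3 detected markers, the one whose markers had the highest average log2 fold gave a cluster its name, unless its top 10 genes went against it. CPM are summed counts of a class over its total. Ratios were given for at least 20 UMIs over both libraries. Shares were also taken after thinning cells to 1500 UMIs. Named genes were the 6 members, the 5 genes most like each (at least 100 counts, classes of at least 30 cells) and members of the pathway lists, with 2 to 4 of high level in the class described. Some of those named were chosen after their values were seen (Plcb1, Rgs2, Mme and Fgf2), as were the sub-clusters and the splits by mast cell and hair matrix genes. The members and lists were chosen with earlier results of these data known. The code was tested on simulated data. Gene positions are from GENCODE M21. Software was scipy 1.17.1, numpy 2.4.6 and scikit-learn 1.9.0 in Python 3.11.15. The labels' extraction text names another species, whereas the gene identifiers are those of mouse.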

Additional observations from a re-analysis of the deposited data

Results flagged for a closer look

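4 of the 6 genes had ratios of opposite direction in different classes, with intervals on opposite sides of 1. The share of all genes that met the same rule was not counted, so this was not shown to be particular to these genes. None of these differences was tested, since each agent has 1 library. For Edn1 the log2 ratio was 1.67 in hair follicle stem or outer root sheath-like cells and -1.15 in suprabasal epidermis-like cells, a difference of 2.82. The first of these was among the values that moved most when cells were filtered and clustered anew. For Ednra it was 0.62 in fibroblast-like and -0.59 in dermal papilla-like cells, a difference of 1.21. The Cyp2f2 Cpz cluster, low in Ednra, held 1542 of 3112 control and 456 of 1192 metformin fibroblast-like cells. Within the Coch Dkk2 fibroblast-like cluster, where Ednra was higher, the log2 ratio was 0.35. For Ednrb it was 1.38 in vascular smooth muscle or pericyte-like cells, on 9 and 25 UMIs, and -2.73 in dermal papilla-like cells, a difference of 4.11. In the Rgs5 cluster of the former class the log2 ratio was 0.52. In the dermal papilla-like class, control Ednrb lay mainly in the Slc26a7 cluster, which had 19 metformin cells. For Kitl it was 1.74 in the class of hair matrix-like and inner root sheath-like cells, which had 18 control cells, and -1.72 in hair follicle stem or outer root sheath-like cells, a difference of 3.45.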

How the results depend on the processing

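No paired analysis was possible because each agent has 1 library. Each ratio was recomputed in 6 other ways, and 134 of the 138 values lay inside the interval given for that ratio. Ratios near 1 turned sign in 2 cases, Kitl in fibroblast-like cells from -0.083 to 0.107 (log2) with a mean over cells, and Kit in melanocyte-like cells from -0.176 to 0.097 with a wider cell filter. On the log2 scale, Edn1 in hair follicle stem or outer root sheath-like cells was 0.49 with that wider filter, which has no upper limit on genes and allows up to 20% mitochondrial counts, and 0.32 with doublets kept. Ednrb in melanocyte-like cells was 2.13 with the wider filter. Ednrb in the Col11a1 Lrrc15 cluster was 3.89 without the cell with the most UMIs in each library, a setting chosen after seeing the data. Leiden resolution 2, a mean over cells and division by the median ratio of all genes moved no ratio out of its interval. The Stc1 Igfbp2 and muscle precursor gene clusters had no counterpart under some settings. Thinning to 1500 UMIs moved 8 of 23 differences in shares, in percentage points, beyond their intervals. Thinning removes UMIs and can lower the shares of both libraries, and a difference in points can shrink with them. For Kitl in basal epidermis-like cells the share fell from 14.4% to 2.68% in control and from 10.4% to 2.16% in metformin. The count of 8 thus cannot tell a dependence on depth from this fall in shares. The difference for Ednra in dermal papilla-like cells turned from 4.243 to -4.773 percentage points, and that for Edn1 in the Sfrp4 Myoc cluster, not among the 8, from 0.113 to -1.128. In all, 4 of 12 levels, those of Kit and Ednrb in melanocyte-like cells, moved with the wider filter. The causes were not tested. The 18 and 19 melanocyte-like cells and 17 control hair matrix-like cells limit what could be detected.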
